A study of Mus musculus with 12 samples.

Results

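The scaffold proteins of the sarcomere were examined in hearts from mice in which Cyb5r3, the gene of cytochrome b5 reductase 3, had been deleted in adult cardiomyocytes. The gene set was defined by protein function, and it was chosen with earlier results of these data known. It held the rows of Ttn, Neb, Nebl, Actn2, Myom1, Myom2, Ldb3, Tcap and Myoz2, which are 9 of the 53700 genes in the count table, and 9 of 9 passed the filter on low counts that left 17847 genes for testing. Strand-specific total RNA libraries were sequenced from 12 hearts, 6 labelled ac-WT and 6 labelled ac-CYB5R3–KO. All 12 mice carried Myh6-CreERT2, a Cre recombinase under the α-myosin heavy chain promoter that acts in cardiomyocytes once tamoxifen is given, and all were treated with tamoxifen, so neither the transgene nor the drug differed between groups. Only the Cyb5r3 alleles did, being CYB5R3wt/wt in ac-WT and CYB5R3fl/fl in ac-CYB5R3–KO mice. The mice were males of FVB/B6 origin crossed back 3 times to C57BL/6J, aged 10–13 weeks at the first of 5 daily doses of 33 mg/kg, and their hearts were collected 5 days later. Cells other than cardiomyocytes keep an intact gene in this model, and the RNA came from ground heart tissue, so that fewer cells of a type and less RNA per cell cannot be told apart.

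The sarcomere is the contractile unit of striated muscle, bounded by Z-discs and crossed at its centre by the M-band. Titin spans from the Z-disc to the M-band as an elastic filament, α-actinin cross-links actin filaments at the Z-disc, and myomesins link titin and myosin at the M-band. Nebulin lines the thin filaments of skeletal muscle and its short relative nebulette serves the Z-disc of the heart. Telethonin (Tcap) caps the ends of titin in the Z-disc, LDB3 (also called ZASP or Cypher) is a PDZ and LIM protein that binds α-actinin, and myozenin 2 (calsarcin 1) ties α-actinin to calcineurin.

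The 9 genes differed widely in transcript length, and not all were long. In the GENCODE annotation of NCBIM37 (mm9), the union of exons covered 116828 bases for Ttn, on chromosome 2 from 76542037 to 76820604, with 347 exons in its longest transcript. It covered 26369 bases for Neb on the same chromosome (51992167 to 52194318) and 13995 for Nebl (17265536 to 17653091). The union fell to 8853 bases in Myom2, 6016 in Ldb3, 5649 in Myom1, 3694 in Actn2 and 3399 in Myoz2. Tcap was the shortest at 948 bases in 2 exons, on chromosome 11 from 98245125 to 98246267. Annotated genes on the opposite strand overlap Ttn, Nebl and Myom2, and the strand setting of the counting was not given in the sources used here. Those neighbours held 0 counts beside Ttn and at most 6 beside Nebl and 2 beside Myom2 in any library.

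RefSeq promoters (GRCm38.p6, 300 bases around a transcript start) were found for Ttn, Nebl, Actn2, Myom1, Ldb3 and Myoz2. The promoters were searched on both strands for binding sites of the muscle regulators MEF2 and serum response factor, the latter known as the CArG box. A MEF2 site was present in 3.19% and a CArG box in 1.63% of 32851 mouse promoters of that length. The stretches of 180 bases before the start are shown for the 4 genes with a match in their first entry, as examples of the muscle motifs found upstream of scaffold genes. The match is in capitals. It lay at position -166 in Ttn and -33 in Myoz2 (MEF2 site) and at -99 in Myom1 and -35 in Ldb3 (CArG box), counted from the start, and the windows were chr2:76982548-76982727 on the minus strand, chr3:123034988-123035167 on the minus strand, chr17:71019377-71019556 on the plus strand and chr14:34588682-34588861 on the minus strand.
Ttn: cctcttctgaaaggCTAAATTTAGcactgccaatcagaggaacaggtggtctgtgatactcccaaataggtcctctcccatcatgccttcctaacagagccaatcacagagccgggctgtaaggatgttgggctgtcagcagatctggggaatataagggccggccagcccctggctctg
Myoz2: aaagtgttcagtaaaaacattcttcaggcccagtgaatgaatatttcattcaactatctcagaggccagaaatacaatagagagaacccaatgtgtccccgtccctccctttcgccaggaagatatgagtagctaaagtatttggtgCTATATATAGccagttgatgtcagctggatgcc
Myom1: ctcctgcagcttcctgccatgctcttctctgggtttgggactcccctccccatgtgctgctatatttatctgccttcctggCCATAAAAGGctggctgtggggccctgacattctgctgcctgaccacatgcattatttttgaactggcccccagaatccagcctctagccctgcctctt
Ldb3: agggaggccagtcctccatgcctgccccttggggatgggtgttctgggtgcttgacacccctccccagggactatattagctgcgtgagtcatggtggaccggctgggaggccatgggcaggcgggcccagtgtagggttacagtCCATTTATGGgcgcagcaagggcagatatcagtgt
A match describes the letters of the window and does not show that a factor was bound there. The Actn2 promoter held neither motif, and 1 of the 4 Nebl entries held a CArG box. The letters CANNTG, present in 72.3% of mouse promoters, occurred 1 time in Ttn, 2 times in Myoz2, 3 times each in Actn2 and Myom1 and not in Ldb3, and TATAAA, present in 13.6%, was in none of these promoters.

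Between 43393183 and 53754284 reads were counted per library. Cyb5r3 itself was at 81.9–185.5 counts per 1000000 reads (CPM) in ac-WT hearts, against 42.1–67.4 after deletion, groups that did not overlap (log2 fold change -1.22 ± 0.19 SE, adjusted p = 0.045, edgeR). CPM were scaled by TMM, which sets library scale from the bulk of genes. The TMM factors were 0.57 in ac-WT mouse 2 and 0.723 in ac-WT mouse 3, against 0.988 to 1.22 elsewhere, and both libraries stood apart in markers of several cell types. The summed level of 7 cardiomyocyte markers was 31500 CPM in ac-WT mouse 2 and 22700 in ac-WT mouse 3, and between 7140 and 14900 in the other 10 hearts. Fibroblast markers summed to 929 and 922 CPM in these mice against 2220–3710 elsewhere, and macrophage markers to 77.2 and 77.4 against 126–260. Of the cardiomyocyte markers 4 of 7 were lower in ac-CYB5R3–KO hearts at an unadjusted p under 0.05. Red blood cell markers summed to 114–2300 CPM in ac-WT and 678–6270 in ac-CYB5R3–KO hearts, with 3 of 4 tested higher, and cartilage and airway markers to 3.72–40.5 and 58.5–128, with 4 of 4 tested higher. Those 4 were Col2a1, Col11a1, Comp and Acan, and the airway marker Scgb1a1 never exceeded 1 count. Most of that sum was Comp, at a mean of 16.3 and 73.5 CPM, and Col11a1, at 4.19 and 27.2 CPM. Col2a1 and Acan reached at most 0.958 and 0.654 CPM. Of 5 smooth muscle markers 3 were lower and 1 higher at that threshold, with sums of 154–300 and 131–180 CPM. The part of these cells in the results that follow was not tested. Of the 5 atrial markers, Sln and Bmp10 never exceeded 3 counts, and Myl7 was at or below 2.00 CPM, while Myl4 reached 9.75 CPM and Nppa, which ventricles also make, spanned 405–956 CPM in ac-WT and 436–1616 CPM in ac-CYB5R3–KO hearts.

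None of the 9 scaffold genes passed an adjusted p under 0.05 in ac-CYB5R3–KO against ac-WT hearts. The count was 0 of 9 by edgeR (lowest adjusted p 0.317), by DESeq2 (lowest 0.229) and by limma-voom (lowest 0.39), where 0.101% of all genes tested passed in edgeR (0.0616% as lower), 2.45% in DESeq2 and 0.0112% in limma-voom. At an unadjusted p under 0.05, 1 of the 9 (Neb) was lower and 0 were higher, where 14.6% of all genes passed, 9.73% as lower and 4.91% as higher, so the share was close to the background. The fitted log2 fold change was below 0 in 9 of 9, beside 51.2% of all genes, with a median of -0.23 against -0.01 over all genes. When libraries were scaled by total counts, the median of all genes moved to 0.26, and 4 of 9 were then below 0 but 9 of 9 below that median, as under TMM. The scaffold genes' median relative to all genes was -0.22 under TMM and -0.13 under total counts. Without ac-WT mice 2 and 3, 4 of 9 were below 0 and 5 of 9 below the median of all genes. Groups overlapped for 9 of 9, where 1.55% of all genes did not overlap and 1.04% did not with the ac-CYB5R3–KO hearts lower. By the exact permutation test on CPM, 0 of 9 had a p under 0.05, where 7.98% of all genes were lower at that threshold.

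**Figure D1:**
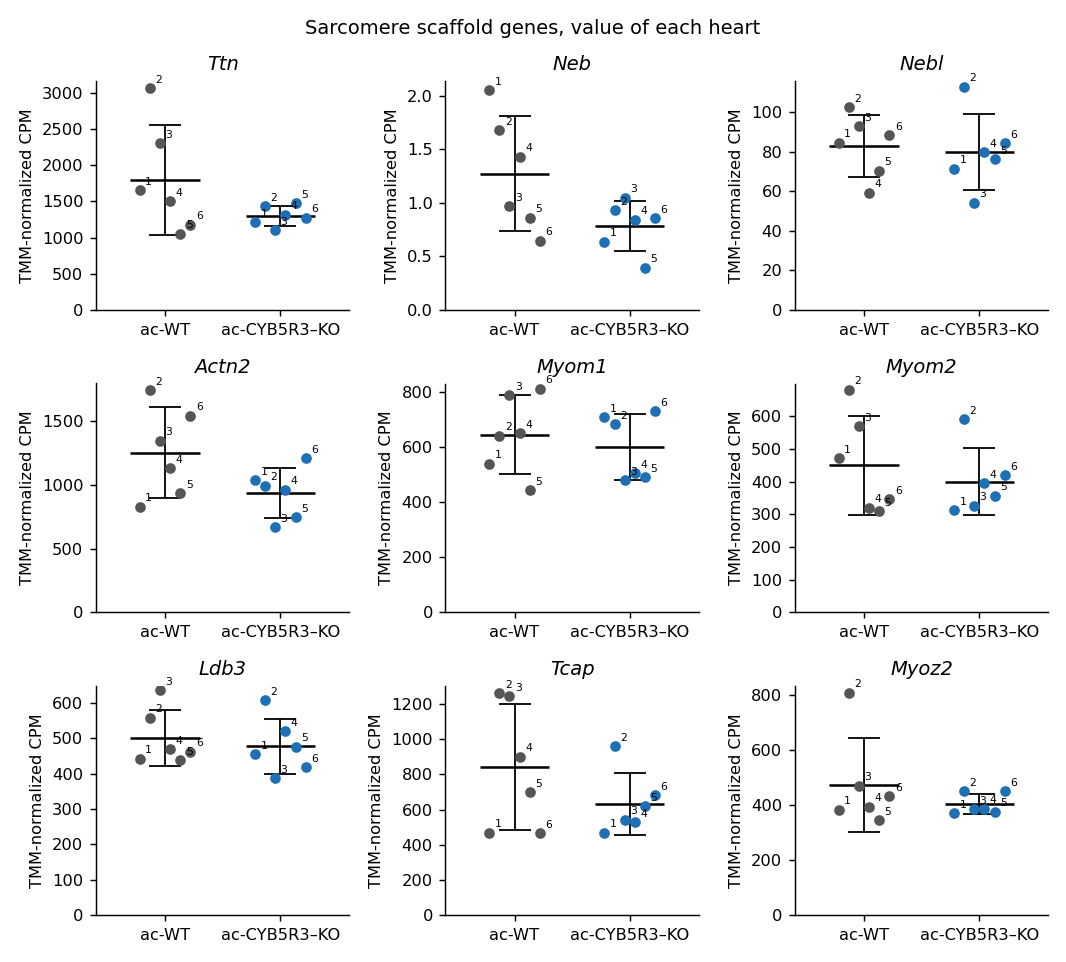
TMM-normalized CPM (vertical axes, from 0) of the 9 scaffold genes in each heart of the 6 ac-WT (grey) and 6 ac-CYB5R3–KO (blue) mice, with the mouse number beside each point, the mean as a horizontal line and the SD as a bar. The points of the groups overlap in every panel, and ac-WT mouse 2 is highest of 12 for Ttn, Actn2, Myom2, Tcap and Myoz2.

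Titin is the elastic spring of the sarcomere and the template of the thick filament. Ttn was at 1054 CPM in the lowest, 1577 in the median and 3059 in the highest ac-WT heart, and at 1099, 1294 and 1477 in ac-CYB5R3–KO hearts. The ac-CYB5R3–KO hearts lay inside the ac-WT range, and 6 of 6 were below the ac-WT median. The means were 1792 ± 760 and 1301 ± 139 CPM (SD, n = 6). The log2 fold change was -0.46 (95% confidence interval -0.97 to 0.05), which missed the threshold (adjusted p = 0.388, edgeR, and p = 0.171 by the two-sided exact permutation test on CPM). The high end of the ac-WT range was ac-WT mouse 2 (3059) and ac-WT mouse 3 (2305). Without these mice the log2 fold change was -0.04. Relative to the median of all genes, Ttn was at -0.45 under TMM, -0.33 under total counts and -0.05 without these mice. The SD of Ttn was 5.46 times as large in ac-WT as in ac-CYB5R3–KO hearts, with coefficients of variation of 42.4% and 10.7%. Counts of 51522 to 87588 reads per library leave little counting error in these values. Ttn took 0.152% ± 0.022 of all counts in ac-WT and 0.144% ± 0.015 in ac-CYB5R3–KO hearts (SD, n = 6).

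Nebulin belongs chiefly to skeletal muscle, and its transcript was scarce here. Neb was at 0.645, 1.20 and 2.05 CPM in the lowest, median and highest ac-WT heart and at 0.395, 0.849 and 1.05 in ac-CYB5R3–KO hearts, from 21 to 109 reads per library. The 3 highest values were those of ac-WT mice 1, 2 and 4, and the others overlapped. Neb had the largest log2 fold change of the 9 genes, -0.69 ± 0.30 (SE, 95% confidence interval -1.34 to -0.04), with an unadjusted p of 0.0394 and an adjusted p of 0.317 in edgeR and p = 0.0714 in the exact permutation test. Its unadjusted p in edgeR no longer passed 0.05 without any 1 of ac-WT mice 1, 2 and 4 and ac-CYB5R3–KO mice 1, 4, 5 and 6, and was highest, at 0.12 with a log2 fold change of -0.495, without ac-WT mouse 1. The 10 skeletal muscle markers summed to 13.3–34.2 CPM in ac-WT and 13.9–41.1 in ac-CYB5R3–KO hearts. Most of the sum was Tnnt3, at a mean of 14.7 and 21.1 CPM (log2 fold change 0.52, adjusted p = 0.508, edgeR). Myh1 and Myh2 reached at most 5 counts in any library, and 2 of the 5 tested, Myh4 and Tnni2, were lower at an unadjusted p under 0.05. The part of these cells in the Neb values was not tested.

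Nebulette, the cardiac member of the nebulin family, was at 59.4, 86.5 and 102.4 CPM in the lowest, median and highest ac-WT heart. In ac-CYB5R3–KO hearts Nebl was at 54.2, 78.0 and 112.8 CPM. The ranges covered each other nearly whole, with both the lowest and the highest of 12 values among ac-CYB5R3–KO hearts. The log2 fold change was -0.06 (95% confidence interval -0.42 to 0.31, adjusted p = 0.895, edgeR), an interval that holds changes of either direction. The ratio of Nebl to Neb reads within a library, which does not depend on library scaling, was 6.12 ± 0.69 on the log2 scale in ac-WT and 6.70 ± 0.62 in ac-CYB5R3–KO hearts (SD, n = 6). The difference of 0.58 was smaller than either SD, and the test did not tell the groups apart (p = 0.147, two-sided exact permutation test, adjusted p = 0.441 over the 3 pairs of genes compared).

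At the Z-disc, Actn2, which encodes the muscle α-actinin, was at 828, 1238 and 1740 CPM in the lowest, median and highest ac-WT heart and at 667, 977 and 1209 in ac-CYB5R3–KO hearts. All 6 ac-CYB5R3–KO hearts were below the ac-WT median, but ac-WT mice 1, 4 and 5 fell within their range. The log2 fold change was -0.42 ± 0.21 (SE, 95% confidence interval -0.86 to 0.02), with an adjusted p of 0.362 in edgeR and p = 0.0866 in the exact permutation test. DESeq2 gave an unadjusted p of 0.0434 and an adjusted p of 0.285. Without ac-WT mice 2 and 3 the value was -0.23. Ttn and Actn2, whose proteins bind each other in the Z-disc, had similar fitted fold changes. The log2 ratio of Ttn to Actn2 reads was 0.46 ± 0.51 in ac-WT and 0.50 ± 0.33 in ac-CYB5R3–KO hearts (SD, n = 6, p = 0.907, exact permutation test).

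Tcap, the titin cap, had a lowest value of 466, a median of 801 and a highest of 1264 CPM among ac-WT mice, against 469, 581 and 961 after deletion. Its highest values were again in ac-WT mice 2 and 3, at 1264 and 1245 CPM, while ac-WT mice 1 and 6 were level with the lowest ac-CYB5R3–KO heart. The log2 fold change was -0.41 (95% confidence interval -0.999 to 0.18, adjusted p = 0.5, edgeR), and 0.01 without ac-WT mice 2 and 3. Myoz2 had a lowest value of 345.5, a median of 413 and a highest of 808 CPM among ac-WT mice, against 371, 385 and 451 after deletion. The ac-CYB5R3–KO hearts were tightly grouped, and the SD in ac-WT hearts was 4.56 times as large with ac-WT mouse 2 at 808 CPM and the next heart, ac-WT mouse 3, at 470. The log2 fold change of Myoz2 was -0.23 (95% confidence interval -0.63 to 0.18, adjusted p = 0.583, edgeR) and 0.00 without ac-WT mouse 2. Ldb3, which binds α-actinin, varied least among ac-WT hearts relative to its mean, from 437.5 through 465 to 635.5 CPM, beside 387, 465 and 608 in ac-CYB5R3–KO hearts. Its medians were 464.8 and 465.2 CPM, and its log2 fold change of -0.07 lay in a 95% confidence interval of -0.37 to 0.23 (adjusted p = 0.84, edgeR).

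At the M-band, Myom1 and Myom2 encode the myomesins that cross-link thick filaments. Myom1 was at 443, 646 and 813 CPM in the lowest, median and highest ac-WT heart and at 480, 594.5 and 731 in ac-CYB5R3–KO hearts. Myom2 was at 309, 408 and 680 CPM and at 312, 376 and 590 CPM. Every ac-CYB5R3–KO value lay inside the ac-WT range for both genes. The log2 fold changes were -0.11 (95% confidence interval -0.49 to 0.27) and -0.17 (-0.65 to 0.31), with adjusted p of 0.798 and 0.744 in edgeR. The log2 ratio of Myom1 to Myom2 reads was 0.56 ± 0.49 in ac-WT and 0.60 ± 0.35 in ac-CYB5R3–KO hearts (SD, n = 6), a difference of 0.04 (p = 0.892, exact permutation test).

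Per kilobase of exon, the scaffold genes kept nearly the same order in every heart. In ac-WT hearts the mean level was 887 ± 379 CPM per kb for Tcap, 339 ± 95.8 for Actn2, 139 ± 50.0 for Myoz2, 114 ± 25.1 for Myom1, 83.2 ± 13.2 for Ldb3 and 50.7 ± 17.2 for Myom2 (SD, n = 6). Ttn, which had the most reads, followed at 15.3 ± 6.51 CPM per kb, then Nebl at 5.93 ± 1.12 and Neb at 0.0483 ± 0.0205. Every neighbouring pair stood in this order in 12 of 12 libraries except Myoz2 over Myom1, which held in 9 of 12. Union lengths count exons that the heart may not use, and the longest transcript of Nebl, of 8079 bases, is far shorter than its union of exons. The 9 genes together took 0.528% ± 0.046 of counts in ac-WT and 0.536% ± 0.071 in ac-CYB5R3–KO hearts (SD, n = 6).

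Short contractile genes were set beside the scaffold genes, namely the actins, troponins, tropomyosin and myosin light chains of the filaments that the scaffold holds. Of 10 such genes, 8 had a log2 fold change below 0 and 2 above, with a median of -0.25. The median was -0.14 without ac-WT mouse 2. Without ac-WT mice 2 and 3 it was -0.06, with 6 genes below 0 and 4 above. By exon union Tpm1 (6485 bases) and Myl4 (4637 bases) were not short, and the other 8 were under 2 kb. An adjusted p under 0.05 was reached by 0 of 10 in edgeR and limma-voom and by 2, Myl2 and Tnni3, in DESeq2. At an unadjusted p under 0.05, 4 of 10 were lower and 0 higher in edgeR, against 9.73% and 4.91% of all genes, and without ac-WT mice 2 and 3 the count was 2. Among all genes under 2 kb, 17.1% were lower and 4.2% higher at that threshold. The 4 were Myl2 (-1.22 ± 0.35 SE), the regulatory light chain of the ventricle, Tnni3 (-1.01 ± 0.28), cardiac troponin I, Myl3 (-0.87 ± 0.28), the essential light chain of the ventricle, and the scarce Myl7 (-1.18 ± 0.42), the atrial light chain. Tnni3 spanned 1482–4805 CPM in ac-WT hearts, against 888–1452 CPM after deletion, and the groups did not overlap (adjusted p = 0.184, edgeR). The actins Actc1 (0.08 ± 0.21) and Acta1 (0.12 ± 0.20) and troponin T, Tnnt2 (-0.14 ± 0.21), had values near 0. The fold changes of the scaffold genes lay inside the range of the short contractile genes, from -0.69 to -0.06 beside -1.22 to 0.12.

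**Figure D2:**
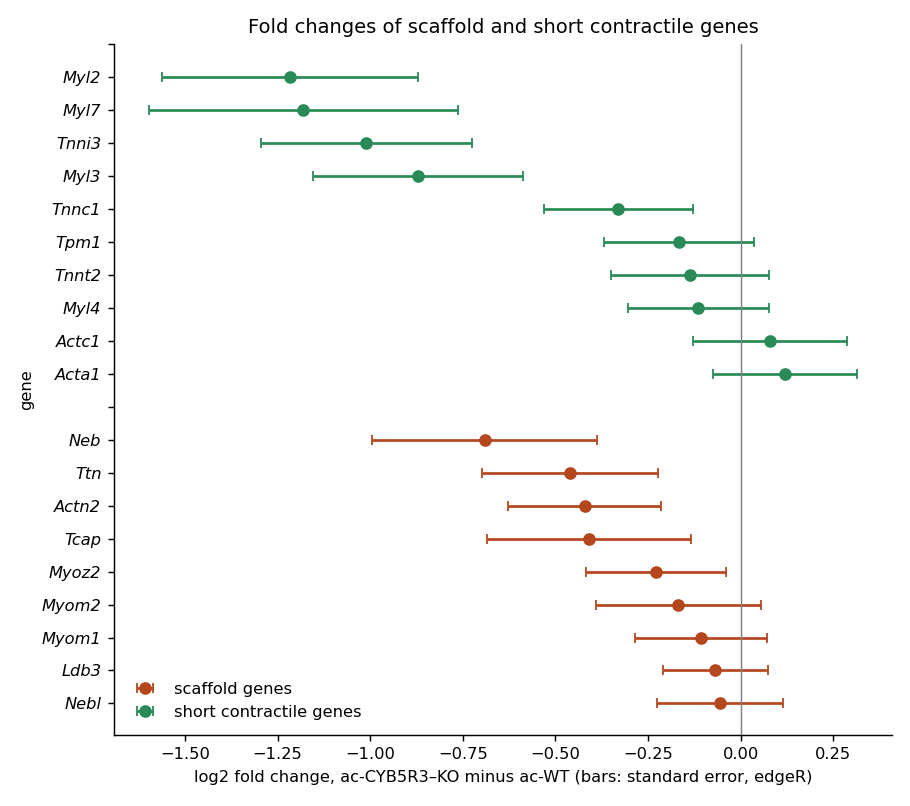
Log2 fold change, ac-CYB5R3–KO minus ac-WT, of the 10 short contractile genes (green) and the 9 scaffold genes (red), with the standard error from edgeR as bars. The 4 lowest short genes lie between -1.22 and -0.87, below every scaffold gene, and the lowest scaffold gene is Neb at -0.69.

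Reads of each scaffold gene were then divided by the summed reads of the 10 short genes in the same library, a ratio that library scaling cannot change. Tpm1, not short by exon union, had the highest mean of the 10, at 7636 CPM in ac-WT and 6804 CPM in ac-CYB5R3–KO hearts. Myl2, also in the sum, was at 6102 and 2626 CPM. The sum was not recomputed without Tpm1. The log2 ratio of Ttn spanned -4.70 to -3.91 among ac-WT mice, against -4.56 to -3.92 after deletion, with means that differed by -0.03 (p = 0.861, two-sided exact permutation test). The ranges nearly coincided. The largest positive differences were those of Nebl, at 0.27 (-8.61 ± 0.28 in ac-WT and -8.34 ± 0.19 in ac-CYB5R3–KO hearts, SD, n = 6, exact p = 0.0801), Ldb3, at 0.27 (exact p = 0.0931), and Myom1, at 0.24 (exact p = 0.197). Neb differed by -0.31 (exact p = 0.411) and Tcap by 0.01 (exact p = 0.987). Without ac-WT mouse 1 the Neb difference was -0.08, and without ac-WT mouse 2 that of Myom1 was 0.106. Without ac-WT mice 2 and 3 the differences were 0.16 for Nebl, 0.16 for Ldb3 and 0.08 for Myom1. That of Myom2 was then larger, at 0.23, beside 0.20 with all mice. Of the 9 ratios 0 had an exact p under 0.05, against 15.1% of all genes higher by the same measure, and 6 of 9 were higher in ac-CYB5R3–KO hearts, against 86.2% of the 17770 tested genes with a read in every library. The lowest p adjusted over all genes was 0.32, for Nebl. The reference mattered: against Actc1 alone, the differences were -0.47 for Actn2 (p = 0.00216, the smallest the exact permutation test can give with 6 mice a group) and -0.44 for Ttn (p = 0.123, exact permutation test). Without ac-WT mouse 1 the number of ratios with an exact p under 0.05 was 2, and without ac-CYB5R3–KO mouse 6 it was 1.

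**Figure D3:**
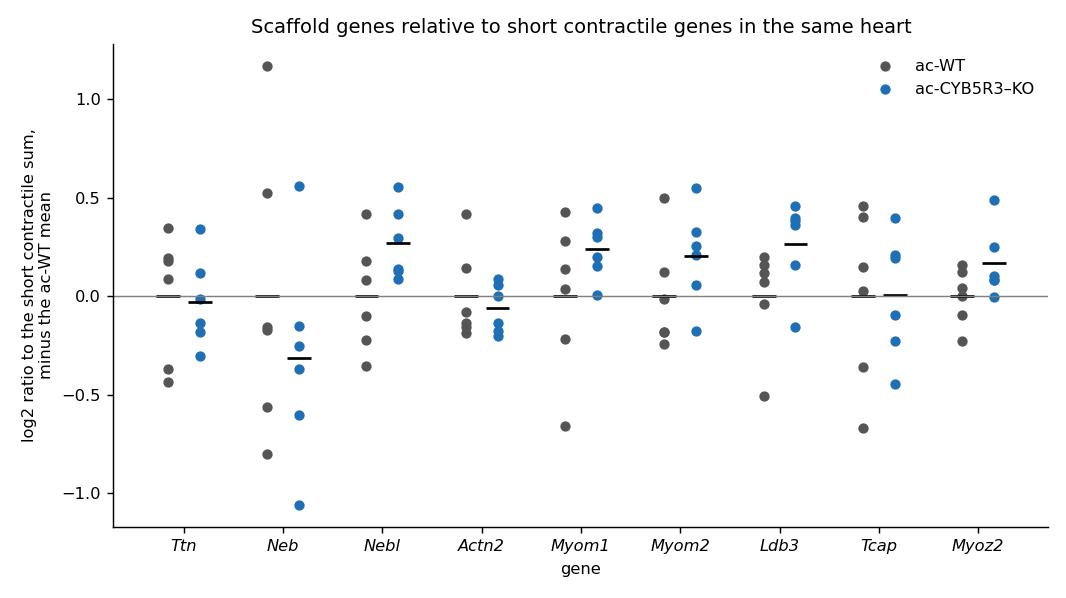
Log2 ratio of each scaffold gene's reads to the summed reads of the 10 short contractile genes in the same heart, minus the ac-WT mean, for ac-WT (grey) and ac-CYB5R3–KO (blue) mice, with a black line at each group mean. The groups overlap for all 9 genes, with mean differences from -0.31 (Neb) to 0.27 (Nebl and Ldb3).

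Length over all genes was described by fold change within bins of exonic length, for the 15527 tested genes (87.0%) with a gene model. The median log2 fold change was -0.06 in 4240 genes under 2 kb, of which 57.7% were below 0, 0.01 in 6944 genes of 2–5 kb, 0.01 in 3673 genes of 5–10 kb and -0.01 in 670 genes over 10 kb, of which 51.0% were below 0. Among genes with a mean of at least 100 CPM, a level chosen after the data were seen, the median was 0.05 in 143 genes of 5 kb or more and -0.29 in 369 genes under 2 kb, of which 80.2% were below 0. With total counts these medians were 0.29 and 0.01, and without ac-WT mice 2 and 3 they were 0.03 and -0.18. Of the scaffold genes in the bin over 10 kb, Ttn (-0.46) and Neb (-0.69) were below the bin's median and Nebl (-0.06) near it. In the shortest bin, Tcap, at -0.41, was below its bin's median. Long genes outside the sarcomere had fold changes on both sides of 0. Of 10 listed, 9 were matched and tested, 4 were below 0 and 5 above, 0 passed an unadjusted p under 0.05 in edgeR, DESeq2 or limma-voom, and the median was 0.01. Without ac-WT mice 2 and 3, 1 was higher at that threshold in edgeR. The median was then 0.06, and the fold changes ran from -0.16 to 0.32. With all mice, the lowest p of these long genes was that of Dmd (dystrophin) at 0.26 ± 0.13 SE. Next by p came Ank2 at -0.36 ± 0.18, Cacna1c at -0.49 ± 0.28 and Syne2 at -0.33 ± 0.19. Ryr2, the cardiac ryanodine receptor, was at 0.04 ± 0.14.

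**Figure D4:**
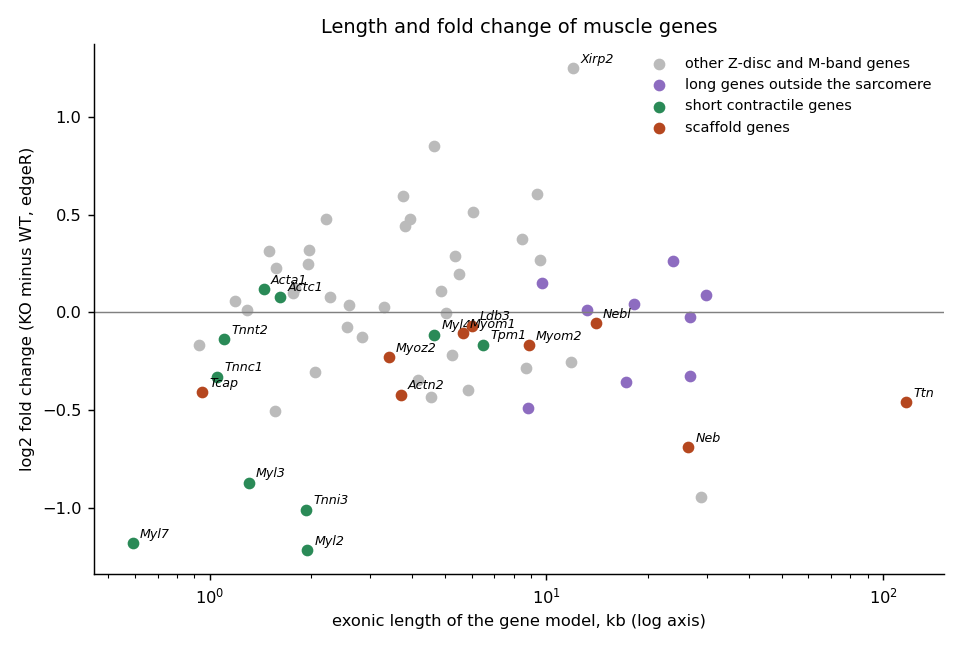
Exonic length of the gene model (horizontal log axis, kb) against the log2 fold change, ac-CYB5R3–KO minus ac-WT, of the scaffold genes (red), short contractile genes (green), other Z-disc and M-band genes (grey) and long genes outside the sarcomere (purple), each point 1 gene. Genes at both ends of the length axis lie below 0, from Myl7 (-1.18) to Ttn (-0.46), and Xirp2 is the highest at 1.25.

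The proteins that surround the scaffold were taken as a list of 37 other Z-disc, M-band and filament-associated genes. Of these 24 had a log2 fold change above 0 and 13 below, with a median of 0.10. An adjusted p under 0.05 was reached by 0 of 37 in edgeR and limma-voom and by 2, Xirp2 and Fhl2, in DESeq2. At an unadjusted p under 0.05 in edgeR, 9 were higher and 3 lower, against 4.91% and 9.73% of all genes. Without ac-WT mice 2 and 3 these counts were 5 and 1. Xirp2, an actin-binding repeat protein of the intercalated disc, had the lowest p. It spanned 191–420 CPM in ac-WT hearts, against 476–856 CPM after deletion, without overlap, with a log2 fold change of 1.25 ± 0.23 SE and an adjusted p of 0.0715 in edgeR. Desmin (Des), the intermediate filament around the Z-disc, was at 2384 ± 617 and 3605 ± 653 CPM (SD, n = 6; 0.60 ± 0.20 SE, adjusted p = 0.218, edgeR). Synpo2, the Z-disc protein myopodin, was at 62.2 ± 21.5 and 94.8 ± 20.9 CPM (adjusted p = 0.231, edgeR). On the lower side, Fhl2, a LIM protein that binds the titin spring, was at 848 ± 123 and 598 ± 119 CPM (-0.50 ± 0.15 SE, adjusted p = 0.196, edgeR).

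Across the 12 libraries the scaffold genes varied together in part. Over their 36 pairs, Pearson's r of log2(CPM + 1) had a median of 0.499, with 18 pairs above 0.5. It ran from -0.0424 (Neb and Myom1) to 0.826 (Nebl and Myom2). These libraries share 1 scaling, and the high ac-WT mice enter every pair, so the values are a description. Ttn followed Myoz2 at 0.818 and Myom2 at 0.816. Among all genes, the 3 most like Ttn on the same log2 scale were Rhot2, a mitochondrial transport GTPase (r = 0.972, and 0.835 without ac-WT mice 2 and 3), Casc1 (r = 0.968) and mt-Co1, a mitochondrially encoded subunit of cytochrome oxidase (r = 0.965). Xirp1, a relative of Xirp2, was among the 3 genes most like Actn2 (r = 0.963), and Tnnt2 was the most like Myom1 (r = 0.902). Nebl was most like Msi2 (r = 0.931), Myom2 like Kif13a (r = 0.964), Ldb3 like Th1l (r = 0.958), Tcap like Pex11a (r = 0.897) and Myoz2 like Med4 (r = 0.974). Neb had the lowest best match, Tpcn1 (r = 0.871, and 0.606 without ac-WT mice 1 and 2), not far below that of Tcap. At 21 to 109 reads per library, counting error also enters the Neb values.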

How the data were processed

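The labels' processing notes name STAR, featureCounts and GRCm39, the study's methods name fastq-mcf, Trimmomatic, STAR and mm9, and the strand setting and annotation of the counts are not given in the sources used here. The values the authors deposited are raw read counts per Ensembl gene, whole numbers without normalization, for 12 libraries of 6 mice a group. Symbols were found for 31027 of 53700 identifiers. Genes were filtered by filterByExpr (minimum count 10), scaled by TMM and tested by quasi-likelihood (two-sided) in edgeR 4.0.16 (R 4.3.3), with Benjamini-Hochberg adjustment over 17847 genes and group as the only term. The biological coefficient of variation was 26.5%, so at 43393183–53754284 counts a library the spread between mice limits precision for all but the lowest genes. Single values and within-library log2 ratios were tested by two-sided exact permutation over 924 splits of the mice (smallest p 0.00216). Adjusting the ratios over the 9 genes had been planned, and they were adjusted over all genes instead. Lengths and positions are from GENCODE M1 (NCBIM37), promoters from RefSeq (GRCm38.p6). Tests were tried on simulated counts first. Alternatives were DESeq2 1.42.0, limma-voom (limma 3.58.1), other scalings and filters, the replicate number as a block, and leaving out mice.

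The text names the 9 genes, the gene lists set beside them by count with their lowest-p members, and the genes most like each of the 9. A gene that this rule would name is not reported here. The genes and lists were chosen with earlier results of these data known. A shared replicate number joins different animals, and the numbers were not used to pair the samples in the main tests.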

Additional observations from a re-analysis of the deposited data

Results flagged for a closer look

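Among 36 sets of 6 hearts (CPM and log2 ratio of the 9 scaffold genes in both groups), 2 held a heart far from the others by Dixon's criterion, a criterion that chance alone meets in about 1 of 20 sets. Myoz2 was at 808 CPM in ac-WT mouse 2, and the nearest heart was at 470. The log2 ratio of Ldb3 to the short contractile genes was -6.52 in ac-WT mouse 2, and the nearest heart was at -6.05. Both values come from the library with the lowest TMM factor.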

How the results depend on the processing

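No setting run gave a scaffold gene an adjusted p under 0.05. Of 180 recomputed log2 fold changes of scaffold genes, 165 kept their direction and 15 did not. With total counts, the median of all genes was 0.26 and 9 of 9 scaffold genes lay below it. Nebl was at 0.24, Myom1 0.17, Myom2 0.20, Ldb3 0.23 and Myoz2 0.13, the median of the scaffold genes 0.13, of the short contractile genes 0.06 and of the length bins 0.20, 0.27, 0.27 and 0.27, and mean CPM was higher in ac-CYB5R3–KO hearts by 13.7 (Nebl), 74.0 (Myom1), 56.4 (Myom2), 77.5 (Ldb3) and 38.6 (Myoz2). Without ac-WT mice 2 and 3, Nebl was at 0.091, Myom2 0.16, Ldb3 0.092, Tcap 0.013 and Myoz2 0.066, the median of the 9 genes 0.013, the ratio of Ttn to the short genes differed by 0.063 and that of Myom1 to Myom2 by -0.15, and 2 short and 6 other Z-disc genes had an unadjusted p under 0.05. Scaffold genes with an unadjusted p under 0.05 numbered 2 with DESeq2 and 0 with limma-voom, total counts or without ac-WT mice 2 and 3. Against Actc1 alone, the ratio differed by -0.14 in Nebl, -0.17 in Myom1, -0.21 in Myom2, -0.14 in Ldb3, -0.40 in Tcap and -0.24 in Myoz2, and 1 ratio had an exact p under 0.05. The causes were not tested.

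Leaving out each mouse in turn, 0 to 3 scaffold genes had an unadjusted p under 0.05 (3 without ac-WT mouse 5, 2 without ac-WT mouse 6, and 0 without ac-WT mouse 2 or 4 or ac-CYB5R3–KO mouse 1, 4 or 5), and 0 to 2 ratios an exact p under 0.05. Log2 fold changes ran from -0.15 to 0.02 (Ldb3), -0.31 to 0.00 (Myom2), -0.30 to 0.004 (Myoz2) and -0.18 to 0.035 (Nebl). The others stayed below 0, from -0.195 to -0.029 (Myom1), -0.576 to -0.229 (Ttn), -0.566 to -0.242 (Tcap), -0.516 to -0.291 (Actn2) and -0.829 to -0.495 (Neb). Ratios to the short genes ran from -0.099 to 0.021 (Actn2), -0.13 to 0.10 (Tcap) and -0.12 to 0.04 (Ttn), -0.487 to -0.08 (Neb) and 0.106 to 0.323 (Myom1), and those of Myom1 to Myom2 from -0.094 to 0.17 and of Ttn to Actn2 from -0.14 to 0.14. With the replicate block 0 scaffold genes had an adjusted p under 0.05 (lowest 0.338), and 2 of all genes did, beside 18 without it. Deviations of same-numbered mice correlated at 0.144 on average (-0.081 to 0.353), beside -0.028 over the 30 other combinations. Of the 6 ac-WT mice, 3 correlated best with their own number. Neb, at 21 to 109 reads, is the gene where counting error matters.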
